A study of Mus musculus with 34 samples.

Results

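The 9 genes *Cdkn1a*, *Ccng1*, *Btg2*, *Gadd45a*, *Plk2*, *Plk3*, *Zfp365*, *Sesn1* and *Sesn2* are targets of the transcription factor p53 that act in cell cycle arrest, growth control and genome stability. They were picked by symbol as a set of known p53 targets, with the FPKM of these same 6 libraries already known, so their differences between the groups are described here and were not used as a test. All 9 were among the 22040 protein-coding genes of the RNA-seq table, each in 1 row, and all 9 were among the 12305 genes that were tested, which needed 0.5 FPKM or more on average over the libraries. FPKM is a fragment count divided by the length of the gene and by a size set for the library. Levels can be compared between genes as far as the lengths used hold, which is taken up below for *Cdkn1a*.

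RNA was sequenced from limb bud cells of E11.5 mouse embryos, from 3 wild type (WT) and 3 conditional knockout (CKO) biological replicates. Where 3 values of a group are given, they are in the order of replicates 1, 2 and 3. The WT libraries carry the genotype label *Hnrnpk* WT, and whether those embryos had a floxed allele or Cre is not given in the sources used here. The CKO embryos were *Prrx1-Cre;Hnrnpk* fl/fl, in which Cre removes a floxed block of inner exons of *Hnrnpk*, the gene of an RNA- and DNA-binding protein. *Prrx1-Cre* is active in limb bud mesenchyme and in the calvarium and acts incompletely in the hindlimb, so blood, endothelial, muscle precursor and ectodermal cells of a CKO limb bud are mostly outside its reach. Embryos of both sexes were used in the study. The sources used here do not give how many embryos went into a library or whether forelimbs and hindlimbs were combined. In bulk tissue a difference in the number of cells of a type and a difference in RNA per cell cannot be told apart.

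p53, encoded by *Trp53* in the mouse, is held at a low level in unstressed cells, mainly by the ubiquitin ligase Mdm2. It accumulates after DNA damage, ribosome stress and other insults, binds a consensus built from a pair of like decamers, and raises the transcription of genes that halt the cell cycle, repair DNA, restrain growth or kill the cell. In the 9 genes the arrest arm is represented by *Cdkn1a* (p21, an inhibitor of cyclin-dependent kinases), *Ccng1* (cyclin G1, which binds a phosphatase and feeds back on p53), *Btg2* (an antiproliferative cofactor of mRNA deadenylation) and *Gadd45a* (a small stress protein that binds p21 and PCNA). *Plk2* and *Plk3* are polo-like kinases of the stress and centriole cycles, *Zfp365* encodes a zinc finger protein linked to genome stability, and *Sesn1* and *Sesn2* encode sestrins, which restrain mTORC1 signalling and limit oxidative damage.

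The deletion was first checked in the target gene. *Hnrnpk* had an FPKM of 193, 195 and 185 in the WT libraries and of 127, 142 and 135 in the CKO libraries. All CKO libraries lay below all WT libraries, with a log2 difference of -0.50 (standard error 0.13, limma adjusted *p* = 0.334). The deleted exons are only part of the gene, and *Hnrnpk* exons share 330 bases with the oppositely oriented *Rmi1*. The reads on listed genes, recovered from the FPKM, ranged from 17140879 to 24624445 per library. All 10 limb mesenchyme markers listed were abundant enough to be tested, with a summed FPKM of 338 to 349 in WT and 288 to 323 in CKO libraries. Globin transcripts, which come from red blood cells, took between 13.7% and 20.6% of the summed FPKM in WT and between 11.7% and 32.4% in CKO libraries. On the first principal component (52.6% of the variance), replicate 1 of WT and replicate 1 of CKO stood apart from the other 4 libraries, and on the next one (26.0%) the groups stood apart.

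The p53 consensus was looked for near the annotated start of each gene, because the 9 genes are grouped by a shared regulator. Within 5000 bases of the start on either side, *Cdkn1a* and *Ccng1* held a match with 1 mismatch, as did 8.16% of the 12281 genes scanned. With up to 2 mismatches the count was 5 of 9, against 55.8% of genes, so a match of this quality in so wide a window was common. For each of the 5 genes, matches with its fewest mismatches are shown 5′ to 3′, and where *Plk2* and *Zfp365* each had a pair of equal ones, 1 is shown. They are printed on the strand of each gene, from the RefSeq copy of GRCm38, with capitals for bases that fit the consensus and lower case for mismatches.
Cdkn1a: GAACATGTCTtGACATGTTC
Ccng1, upstream: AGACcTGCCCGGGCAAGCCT
Ccng1, inside the gene: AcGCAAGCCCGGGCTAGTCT
Zfp365: AGACTAGgCTGGGCAAGaCT
Plk2: cAACATGCCCGGGCTTGCaT
Gadd45a: GAGtTTGTTTAAACgAGCTC

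The *Cdkn1a* match lies at chr17:29090928-29090947 on the plus strand, at -48 to -29 from the annotated start, which is counted as 0. The start used is the outermost annotated one of each gene. *Cdkn1a* and *Sesn1* have another start in RefSeq, so their distances hold for the start used only. The *Ccng1* matches lie on the minus strand at chr11:40755462-40755481, at -170 to -151 from the start, and at chr11:40754936-40754955, 356 to 375 bases after it. That of *Zfp365*, also on the minus strand, is at chr10:67912706-67912725, at -63 to -44. A second *Zfp365* match with 2 mismatches, not printed above, lies inside the gene at 3550 to 3570 and has 1 base between its decamers. In *Plk2* the match is at chr13:110392882-110392901, at -2164 to -2145 (a second one with 2 mismatches lies at -652 to -633), and in *Gadd45a* the match is at chr6:67036265-67036284, 1173 to 1192 bases into the gene. *Btg2*, *Plk3*, *Sesn1* and *Sesn2* had no match with fewer than 3 mismatches in this window, while 99.5% of genes had one with up to 3, so these 4 are not shown. These matches describe letters of the reference genome, and binding of p53 was not measured.

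Close to the start the matches were rarer. In the 200 bases before the annotated start, a window chosen after the positions above were seen, 3 of the 9 genes held a match with up to 2 mismatches, against 113 of 12281 genes (0.92%). With 1 mismatch the numbers were 2 of 9 genes and 11 of 12281 (0.0896%). The 3 genes are *Cdkn1a*, *Ccng1* and *Zfp365*. The 9 genes were picked as known p53 targets and the window was set with the matches known, so nothing is read from these counts. For *Cdkn1a* the count also depends on the use of its outermost annotated start. The upstream stretches of the 3 genes are printed on the strand of the gene up to the base before the start, with the match in capitals. They cover chr17:29090776-29090975 on the plus strand, chr11:40755312-40755511 on the minus strand and chr10:67912663-67912862 on the minus strand of GRCm38.
Cdkn1a: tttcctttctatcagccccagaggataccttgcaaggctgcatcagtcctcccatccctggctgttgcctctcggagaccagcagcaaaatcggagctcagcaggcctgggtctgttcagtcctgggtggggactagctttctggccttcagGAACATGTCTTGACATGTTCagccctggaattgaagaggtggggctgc
Ccng1: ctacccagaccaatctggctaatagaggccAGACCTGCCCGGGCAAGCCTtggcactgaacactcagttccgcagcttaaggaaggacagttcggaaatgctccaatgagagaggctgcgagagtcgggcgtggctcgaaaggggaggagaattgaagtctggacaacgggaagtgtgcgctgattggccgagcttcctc
Zfp365: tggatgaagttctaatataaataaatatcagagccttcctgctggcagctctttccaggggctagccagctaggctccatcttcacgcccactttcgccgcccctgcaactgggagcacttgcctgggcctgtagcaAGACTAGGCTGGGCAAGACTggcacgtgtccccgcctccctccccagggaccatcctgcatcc

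**Figure D1:**
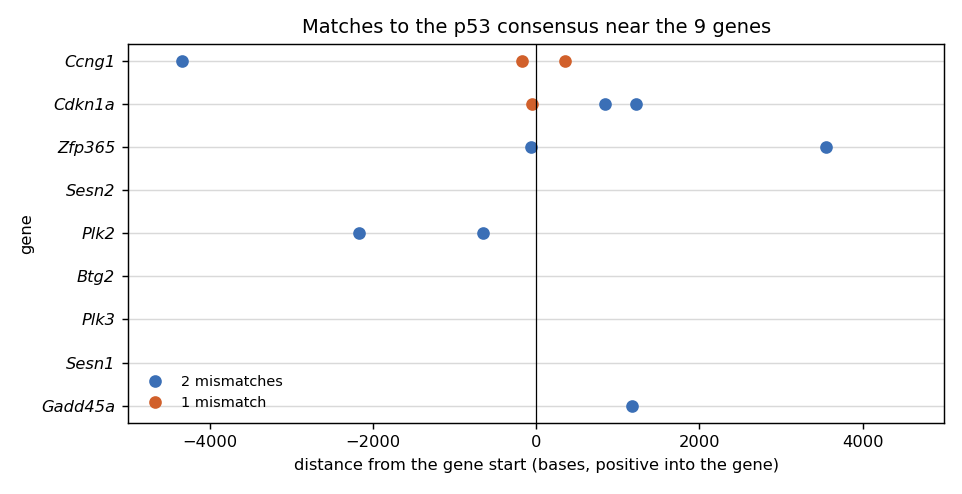
Matches to the p53 consensus with 1 mismatch (orange) and 2 mismatches (blue) within 5000 bases of the start of each of the 9 genes (rows). The x axis gives the distance of a match from the start in bases, negative before it. *Ccng1*, *Cdkn1a* and *Zfp365* have matches less than 200 bases before the start, and 4 of the rows are empty.

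*Cdkn1a* (ENSMUSG00000023067, chr17:29090976-29100727, plus strand) is the main effector of p53 in cell cycle arrest. Its FPKM was 4.44, 6.60 and 5.59 in the WT libraries and 21.5, 26.5 and 28.3 in the CKO libraries. Every CKO library lay above every WT library, and the lowest CKO value exceeded the highest WT value by 14.9 FPKM. The means were 5.54 ± 1.08 and 25.4 ± 3.51 (SD, n = 3 libraries each), a 4.59-fold ratio. On the log2(FPKM + 0.1) scale the difference was 2.19 (standard error 0.18, 95% interval 1.78 to 2.60), and it was 2.25, 1.99 and 2.32 between the libraries numbered 1, 2 and 3. Its values gave whole reads in all libraries at a length of 2223 bases and at no other length between 500 and 4000, whereas the merged exons of GENCODE vM21 cover 3553 bases. At that length they rest on 178, 351 and 271 reads in WT and on 866, 1126 and 1501 in CKO libraries. The length cancels out of the comparison between libraries but not out of the order of levels between genes. RefSeq gives 2 starts for *Cdkn1a*, and values per gene do not separate them.

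*Ccng1* (ENSMUSG00000020326, chr11:40748552-40755311, minus strand) had the largest difference of the 9 genes. Its FPKM was 9.78, 10.8 and 11.8 in WT and 37.3, 77.9 and 60.1 in CKO libraries. The groups did not overlap, but the CKO libraries spread widely: the coefficient of variation was 9.55% in WT and 34.9% in CKO, and CKO replicate 1 was the lowest. The mean was 10.8 ± 1.03 in WT and 58.4 ± 20.4 in CKO (SD, n = 3 libraries each), a 5.41-fold ratio, with a log2 difference of 2.36 (standard error 0.25, 95% interval 1.78 to 2.95). The same order of the CKO libraries, 1 below 3 below 2, was seen in the globin share (11.7%, 23.5% and 32.4%), and the part of red blood cells in the level of *Ccng1* was not tested. The WT libraries also shared an order, 1 below 2 below 3. Their globin shares were 13.7%, 19.45% and 20.6%, beside *Ccng1* values of 9.78, 10.8 and 11.8. These orders are not particular to *Ccng1*, since *Sesn1* had the same order of libraries in both groups. On the first principal component of all tested genes the CKO libraries also ran 1 below 3 below 2, at -30.4, 27.7 and 15.6 for replicates 1, 2 and 3.

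*Zfp365* (ENSMUSG00000037855, chr10:67886103-67912662, minus strand) was the least abundant of the 9 genes in WT limb buds. Its FPKM was 0.597, 0.570 and 0.493 in WT and 2.26, 2.33 and 2.13 in the CKO libraries, which corresponds to 56, 71 and 56 against 213, 232 and 264 reads. The 2 groups stood far apart relative to their spread, with means of 0.553 ± 0.0537 and 2.24 ± 0.102 (SD, n = 3 libraries each). The ratio was 4.05-fold, and the log2 difference of 1.84 (standard error 0.16, 95% interval 1.46 to 2.22) understates it, since the added 0.1 is large beside the WT level.

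*Sesn2* (ENSMUSG00000028893, chr4:132492032-132510501, minus strand) stood at 3.78, 3.50 and 3.36 FPKM in WT and at 10.9, 8.91 and 9.79 in the CKO libraries. The lowest CKO library was 5.13 FPKM above the highest WT library. The means were 3.55 ± 0.214 and 9.86 ± 0.983 (SD, n = 3 libraries each), a 2.78-fold ratio, and the log2 difference was 1.45 (standard error 0.13, 95% interval 1.15 to 1.74). *Sesn2* is also known as a target of ATF4, the transcription factor of the integrated stress response. Of 14 other genes known as ATF4 targets or as part of that response, 11 were tested, and 0 passed the limma test without or with the replicate number as a block (2 and 4 had an unadjusted *p* value under 0.05). By limma voom on the recovered reads 0 passed without the block and 1, *Slc7a5*, with it, a transporter of amino acids singled out after its values were seen. Of these, 9 were higher and 2 lower in CKO, and their median log2 difference was 0.28 against 0.00 over all genes tested. The 14 summed to between 271 and 327 FPKM in WT and between 328 and 382 in CKO libraries. *Trib3*, a pseudokinase induced by ATF4, differed most among them, with 2.56 ± 0.138 in WT and 4.02 ± 1.17 in CKO (SD, n = 3 libraries each), a log2 difference of 0.59 (standard error 0.21, limma adjusted *p* = 0.516). The part of ATF4 in the level of *Sesn2* was not tested.

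The paralog *Sesn1* (ENSMUSG00000038332, chr10:41809935-41908424, plus strand) overlapped between the groups. Its values were 6.77, 8.57 and 8.64 FPKM in WT and 6.04, 9.13 and 7.18 FPKM in the CKO libraries. The means were 7.99 ± 1.06 and 7.45 ± 1.56 (SD, n = 3 libraries each), and replicate 1 was the lowest library of both. The log2 difference was -0.11 (standard error 0.18, 95% interval -0.53 to 0.31), and it became 0.03 without CKO replicate 1. In WT limb buds *Sesn1* was more abundant than *Sesn2* in every library, and in CKO limb buds the order of their means was reversed although their ranges overlapped. RefSeq gives 2 starts for *Sesn1* far apart, which the gene-level values do not separate. The third sestrin gene, *Sesn3*, had 9.02 ± 0.661 FPKM in WT and 7.50 ± 0.887 in CKO (SD, n = 3 libraries each).

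*Plk2* and *Btg2* were higher in CKO by a smaller amount. *Plk2* (ENSMUSG00000021701, chr13:110395046-110400844, plus strand) had 14.2, 13.0 and 13.0 FPKM in WT and 18.3, 19.2 and 17.9 FPKM in the CKO libraries. The groups did not overlap and each was tight, with coefficients of variation of 5.18% in WT and 3.71% in CKO. Its means were 13.4 ± 0.694 and 18.5 ± 0.685 (SD, n = 3 libraries each), and the log2 difference was 0.46 (standard error 0.11, 95% interval 0.21 to 0.71). *Btg2* (ENSMUSG00000020423, chr1:134075170-134079120, minus strand) had 11.9, 9.53 and 10.3 FPKM in WT and 14.9, 12.5 and 13.1 FPKM in CKO libraries. Here the groups were separated by only 0.636 FPKM, and in both of them replicate 1 was the highest library and replicate 2 the lowest. The log2 difference of *Btg2* was 0.35 (standard error 0.13, 95% interval 0.05 to 0.66), and between libraries of the same number it was 0.32, 0.39 and 0.34.

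*Plk3* (ENSMUSG00000028680, chr4:117128655-117133963, minus strand) varied more within the groups than between them. Its FPKM was 2.65, 1.57 and 1.12 in WT and 2.75, 1.47 and 2.04 in the CKO libraries, on 62 to 126 reads per library. Replicate 1 was the highest library of both groups, and the coefficient of variation was 44.2% in WT and 30.9% in CKO. The log2 difference was 0.25 with a standard error of 0.33 (95% interval -0.52 to 1.03), and without WT replicate 3 it was -0.01. *Plk3* exons share 84 bases with the oppositely oriented *Tctex1d4*, a gene of the same table, and whether the counting used strand is not given in the sources used here. Immediate early genes, which are induced within minutes by serum or handling, also summed highest in replicate 1 of each group. The 17 found in the table added up to 624, 413 and 422 FPKM in WT and 691, 386 and 392 FPKM in the CKO libraries. Of the 16 tested, 0 passed the limma test with or without the block, and voom on the recovered reads called 0 without and 1 with it (*Egr1*, a zinc finger factor named after its values were seen). In CKO 10 were higher and 6 lower, and *Fosb*, a subunit of AP-1, differed most, by -0.49 (standard error 0.22, limma adjusted *p* = 0.614). The part of these genes' induction in the levels of *Plk3* and *Btg2* was not tested.

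*Gadd45a* (ENSMUSG00000036390, chr6:67035096-67037457, minus strand) was the most abundant of the 9 genes in WT limb buds, and its groups overlapped. It had 14.3, 14.1 and 14.6 FPKM in WT and 10.6, 13.3 and 15.4 FPKM in the CKO libraries. The WT libraries were nearly equal, with a coefficient of variation of 1.99%, and the CKO libraries spread around them, with 18.5%. The log2 difference was -0.15 (standard error 0.15, 95% interval -0.50 to 0.20), and without CKO replicate 1 it was -0.00. Its exons share 337 bases with an antisense transcript, *E230016M11Rik*, which is not among the genes of the table. The intervals of *Gadd45a*, *Sesn1* and *Plk3* include 0 but are wide, and they do not show that these genes were equal in the groups.

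**Figure D2:**
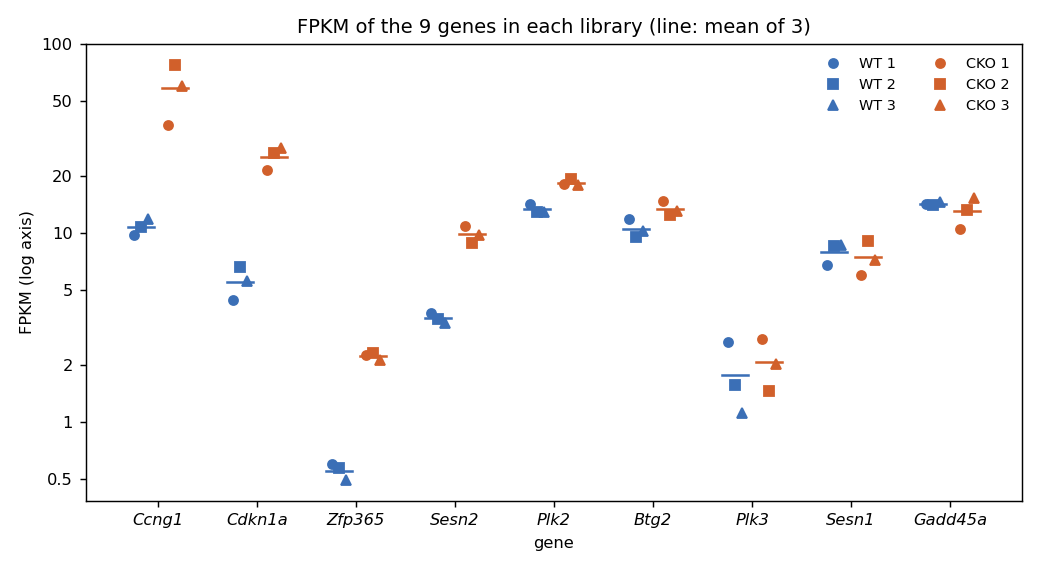
FPKM (log axis) of the 9 genes in each of the 6 libraries, WT in blue and CKO in orange, with a marker shape for each replicate number and a line at the mean of 3 libraries. The genes are ordered by their log2 difference. In 6 genes from *Ccng1* to *Btg2* the CKO libraries lie above the WT libraries, and in *Plk3*, *Sesn1* and *Gadd45a* the groups overlap.

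Across the libraries, 6 of the 9 genes had all CKO values above all WT values, 3 overlapped and 0 lay below, where 5.63% of all tested genes had the CKO values above. The 4 genes with ratios from 2.78 to 5.41 were also the only ones of the 9 with a ratio over 2 and an unadjusted *p* value under 0.05, the kind of threshold used in the study, which 0.471% of all tested genes passed upwards. By limma with Benjamini-Hochberg adjustment over all tested genes, the same 4 genes, *Cdkn1a*, *Ccng1*, *Zfp365* and *Sesn2*, were called higher, where 0.0569% of genes (7 of 12305) were. With the replicate number as a block, *Plk2* was called too, which made 5 of 9, where 1.13% of genes (139 of 12305) were called higher. Since the 9 genes were chosen with this comparison known, nothing is read from these counts. The counts changed with the libraries used. In the fit without the block the count was 0 of 9 genes when WT replicate 3 was left out, and likewise for CKO replicate 2 and for CKO replicate 3. Leaving out WT replicate 2 gave 1 gene, WT replicate 1 gave 3 and CKO replicate 1 gave 4. The log2 differences themselves moved little, and those of *Cdkn1a*, *Ccng1*, *Zfp365* and *Sesn2* stayed within 2.04 to 2.32, 2.12 to 2.66, 1.77 to 1.89 and 1.37 to 1.52 with any 1 library left out. The median of the 9 was 0.46, against 0.00 over all genes tested. Between libraries of the same number it was 0.36, 0.56 and 0.81 for numbers 1, 2 and 3, with 7, 7 and 8 genes higher in CKO.

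**Figure D3:**
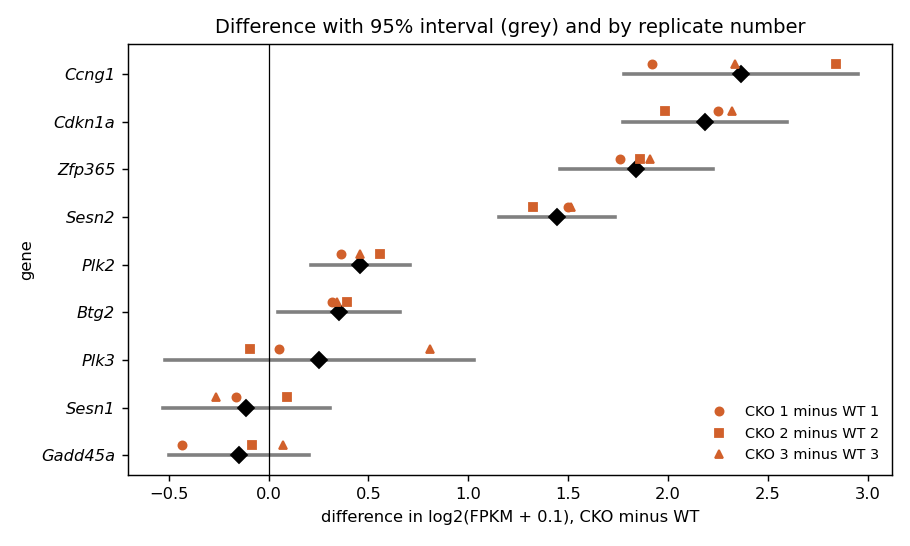
Difference between CKO and WT in log2(FPKM + 0.1) for each of the 9 genes (black diamonds) with the 95% interval from limma (grey bars), and the differences between libraries of the same replicate number (orange marks). The values fall into 4 genes between 1.45 and 2.36, *Plk2* and *Btg2* at 0.46 and 0.35, and 3 genes whose intervals include 0.

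The order of the 9 genes by level differed between the groups. In WT limb buds *Gadd45a* and *Plk2* led, with overlapping ranges, followed by *Ccng1* and *Btg2*, which also overlapped. Below them *Sesn1*, *Cdkn1a*, *Sesn2*, *Plk3* and *Zfp365* followed in this order, each with a range that did not overlap the next. In CKO limb buds *Ccng1* came first, then *Cdkn1a*, *Plk2* and *Btg2*, without overlap between one and the next. From *Btg2* through *Gadd45a* and *Sesn2* to *Sesn1* neighbours overlapped, and so did *Zfp365* and *Plk3* at the lower end. Among all tested genes, the mean level of *Cdkn1a* stood at the percentile 42.7 in WT and 84.5 in CKO, that of *Ccng1* at 62.9 and 94.6, and that of *Sesn2* at 31.0 and 60.2. The place of *Cdkn1a* depends on the 2223 bases that its deposited FPKM imply. At the 3553 annotated bases its mean would be 3.47 ± 0.675 in WT and 15.9 ± 2.19 in CKO (SD, n = 3 libraries each). That puts it below *Sesn2* in WT, with overlapping ranges. In CKO it would lie between *Plk2* and *Btg2*, with a range that overlaps that of *Btg2*.

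Added together, the 9 genes came to 68.4, 68.2 and 69.0 FPKM in WT and to 124, 171 and 156 FPKM in the CKO libraries. The WT sums were nearly equal, and every CKO sum was higher. *Ccng1* made up between 14.3% and 17.2% of the sum in WT libraries and between 29.9% and 45.5% in CKO libraries, and *Cdkn1a* between 6.49% and 9.67% in WT and between 15.4% and 18.2% in CKO. Of the difference of 82.0 FPKM between the mean sums, *Ccng1* held 47.6 (58.1%) and *Cdkn1a* 19.9 (24.2%), *Sesn2* 6.31 and *Plk2* 5.07. At the annotated length *Cdkn1a* would hold 12.4 of 74.6 FPKM (16.7%).

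**Figure D4:**
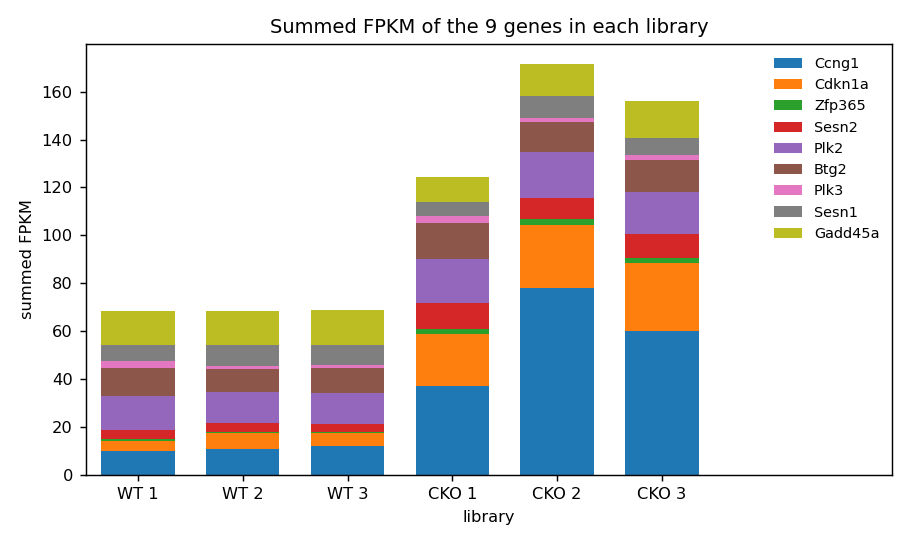
Summed FPKM of the 9 genes in each library, as stacked bars from 0. The 3 WT bars reach 68.2 to 69.0 and the 3 CKO bars 124 to 171, and the segments of *Ccng1* and *Cdkn1a* grow most.

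The closest family relatives of these genes had log2 differences between -0.27 and 0.22. Of 13 relatives, which include the other Cip/Kip inhibitors, cyclin G2, the Btg and Tob proteins, the other Gadd45 and polo-like kinase genes and *Sesn3*, 12 were tested and 0 were called by limma without or with the block, where 1 and 3 had an unadjusted *p* value under 0.05. By limma voom on the recovered reads it was also 0 in both fits. They were higher in 4 and lower in 8 cases, and their median log2 difference was -0.09. The cyclin *Ccng2*, a relative of *Ccng1* known as a FoxO target, differed most, with 17.8 ± 1.85 FPKM in WT and 14.8 ± 1.87 in CKO (SD, n = 3 libraries each), a log2 difference of -0.27 (standard error 0.14, limma adjusted *p* = 0.672).

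*Trp53* itself and its regulators were compared next. *Trp53* had 50.3, 38.8 and 37.4 FPKM in WT and 57.5, 46.1 and 51.4 FPKM in the CKO libraries, so the groups overlapped. Its log2 difference was 0.30 with a standard error of 0.16, and the limma adjusted *p* value was 0.681, or 0.169 when blocked by replicate number. Of the 8 genes listed as p53 and its feedback regulators, 6 were tested and 0 were called by limma in either fit, nor by voom, with 5 higher and 1 lower in CKO and a median of 0.16. *Mdm2*, a p53 target that acts back on p53, was singled out after its values were seen. It had 17.5, 12.4 and 13.1 FPKM in WT and 18.6, 13.2 and 14.6 FPKM in CKO libraries, and its log2 difference of 0.12 had a standard error of 0.18.

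Among p53 targets for cell death, 13 of 14 were tested, 12 were higher in CKO, and 3 passed the limma test without the block, all of them higher, where 0.0569% of all genes were. The list was written with results of these libraries known and is no independent evidence of its direction. *Eda2r*, a receptor of the TNF family, rose from 0.246 ± 0.0688 to 5.94 ± 1.25 FPKM (SD, n = 3 libraries each), a log2 difference of 4.12 (standard error 0.23, limma adjusted *p* = 0.00165). Its WT mean was under 0.5 FPKM, so it entered the tested genes only through its CKO values and its place in the count of 3 is no support for the list. With no filter on low values its limma adjusted *p* was 0.00548. *Phlda3*, a repressor of Akt signalling, rose by 2.03 (standard error 0.17, limma adjusted *p* = 0.0101), and *Zmat3*, an RNA-binding zinc finger protein, by 1.50 (standard error 0.13, limma adjusted *p* = 0.0101). When WT replicate 3, CKO replicate 2 or CKO replicate 3 was left out, *Phlda3* and *Zmat3* were not called and *Eda2r* was, with limma adjusted *p* values from 0.0215 to 0.0332. With the block 9 of the 13 passed, all higher, where 1.13% of all genes were. The 6 added were *Bax* (log2 difference 0.73, adjusted *p* = 0.00398), *Bbc3* (0.75, adjusted *p* = 0.0197), *Pmaip1* (0.44, adjusted *p* = 0.0457), *Tnfrsf10b* (1.05, adjusted *p* = 0.00237), *Aen* (1.30, adjusted *p* = 0.000103) and *Trp53inp1* (0.77, adjusted *p* = 0.00785), all by limma with the block. Without the block their limma adjusted *p* values were, in the same order, 0.345, 0.31, 0.345, 0.0786, 0.052 and 0.552. The groups overlapped in *Trp53inp1*. *Bax*, *Bbc3* and *Pmaip1* encode proteins of the Bcl-2 family, *Tnfrsf10b* a death receptor and *Aen* a nuclease. The median of this list was 0.75, against 0.46 for the 9 arrest and stress genes. The difference between these medians was not tested.

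Of 12 p53 targets in metabolism, autophagy and repair, 10 were tested and 0 were called without the block. With the block *Polk*, a translesion polymerase (log2 difference 0.61, limma adjusted *p* = 0.0393), and *Gtse1*, a microtubule-bound negative regulator of p53 (0.59, limma adjusted *p* = 0.00908), were higher. The 10 were higher in 6 and lower in 4 cases, with a median of 0.19. Of 9 other genes listed for arrest, 0 were called without the block and 1, *Rprm*, with it. Besides *Rprm* and *Sfn* these are *Ccne1*, *Ccnd1*, *Ccnb1*, *Cdk1*, *Cdk2*, *Cdk4* and *Cdc25c*, which drive the cell cycle. Their lack of calls therefore says nothing about p53 targets that halt it. *Ccne1*, *Ccnb1* and *Cdk1* are also counted among the proliferation genes below, as is *Pcna* of the preceding list. *Rprm*, which encodes a mediator of arrest in G2, had 2.28, 7.84 and 9.39 FPKM in WT and 3.75, 12.8 and 14.0 FPKM in the CKO libraries. Its groups overlapped, since replicate 1 was far lower than the others in both, and its log2 difference of 0.66 had a standard error of 0.64 without the block (limma adjusted *p* = 0.854) and of 0.11 with it (limma adjusted *p* = 0.00785). Of 25 proliferation genes, which p53 and p21 are known to hold down, 0 were called in either fit. They were higher in 19 and lower in 6 cases with a median of 0.13, and *Mcm3*, a subunit of the replicative helicase, differed most (0.27, standard error 0.12, limma adjusted *p* = 0.615). Without the block, 1022 of the 12305 genes tested had an unadjusted limma *p* value under 0.05, among them 6 of the 9 genes and 9 cell death targets. The counts at that level were 1 for the relatives, 0 for the regulators, 3 for metabolism, autophagy and repair, and 0 each for the other arrest, proliferation and immediate early genes. With the block the counts of these lists were, in the same order, 3, 1, 5, 1, 4 and 4. The number over all genes with the block is not given, so nothing is read from them. By voom on the recovered reads, 0 genes of these lists were called without the block. With it voom called *Polk* and *Rprm*, *Egr1* among the immediate early genes, and 0 proliferation genes.

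**Figure D5:**
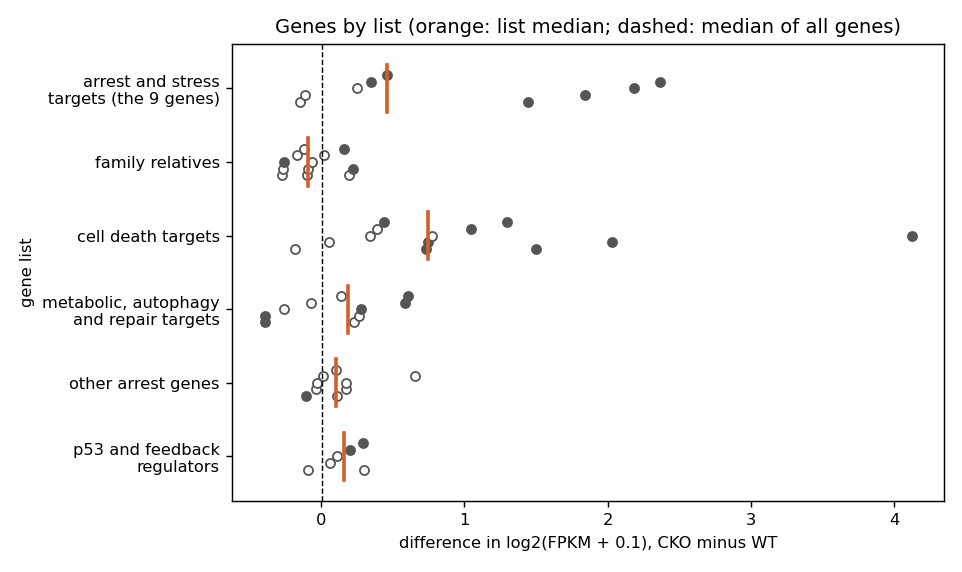
Difference between CKO and WT in log2(FPKM + 0.1) of each tested gene, by list, with the median of each list (orange bar) and of all genes (dashed line). Filled circles are genes whose CKO and WT values do not overlap. The 9 arrest and stress genes spread from -0.15 to 2.36, the cell death targets reach 4.12, and the family relatives stay near 0.

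The genes whose course over the 6 libraries was most like that of the 9 were found from the root mean square difference of log2 values centred on each gene's mean. Closest to the median course of the 9 were *Gm10036* (0.12), *Poli* (0.13), *Tma16* (0.14), *Bbc3* (0.14) and *Acad10* (0.14). They had log2 differences between 0.51 and 0.75, as the median course itself is shaped by the genes with moderate differences. Closest to *Cdkn1a* was *Phlda3* (0.08), followed at a distance by *Gm29106* (0.23), *Cldn15* (0.26), *Fam212b* (0.27) and *Ccng1* (0.27). The WT means of *Gm29106*, *Cldn15* and *Fam212b* were 0.1762, 0.2397 and 0.2996 FPKM, and that of *Acad10* was 0.4721. All are under 0.5 FPKM, so these genes entered the tested genes only through their CKO values. Their likeness to a course that is higher in CKO is therefore partly set by the filter, and nothing is read from it. *Phlda3* had 3.70, 5.14 and 4.38 FPKM in WT and 15.1, 19.4 and 20.5 FPKM in the CKO libraries, and like *Cdkn1a* it was lowest in replicate 1 of both groups. *Poli* encodes a translesion polymerase and *Cldn15* a claudin of tight junctions. With 6 libraries in 2 groups, such likeness is mostly a likeness of the group difference, and it is given as a description.

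Other cell types of the limb bud were followed by their marker genes, since they are mostly outside the reach of *Prrx1-Cre*. Of the 51 markers tested in 7 lists, 0 were called by limma in either fit, while 4 had an unadjusted *p* value under 0.05 without the block and 12 with it. By voom on the recovered reads 0 were called without the block and 3 with it, *Twist2*, *Hba-a2* and *Met*, named after their values were seen. All 10 erythroid markers had a higher mean in CKO, with a median log2 difference of 0.39, and their summed level spanned the range of WT in CKO. The 6 muscle precursor markers tested were also all higher (median 0.48). All 7 listed ones, tested or not, summed to 18.5 to 32.9 FPKM in WT and 31.0 to 39.1 in CKO libraries. All 7 tested endothelial markers were lower (median -0.30), and the 8 listed ones summed to 22.1 to 32.2 in WT and 15.9 to 25.0 in CKO. The ectoderm markers summed to between 48.4 and 80.0 FPKM in WT and between 53.2 and 82.5 in CKO libraries, the macrophage markers to between 11.9 and 17.7 and between 12.9 and 21.4, and those of Schwann precursors and neural crest to between 3.28 and 8.38 and between 6.69 and 8.79. Of the limb mesenchyme markers 9 of 10 were lower in CKO, with a median of -0.18. No marker on any of these lists was at 0 in all libraries, and the part of cell composition in the levels of the 9 genes was not tested.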

How the data were processed

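RNA-seq libraries of 3 WT and 3 CKO E11.5 limb bud samples were analysed, grouped by their labels. Samples of the other assays (Hi-C, CUT&RUN and ATAC-seq) were not analysed here. The authors deposited FPKM values per gene, made with a stranded mRNA kit. The submitters' processing notes name HISAT2 2.1.0, featureCounts 1.6.3 and mm10, without roles, and the strand setting of the counting is not given in the sources used here. Of the genes, 99.5% were found in GENCODE vM21 on GRCm38. Multiplied by exon length, 92.6% of them gave whole reads in all 6 libraries (within 0.1 read), between 17140879 and 24624445 per library. Reads on listed genes were 0.955, 0.968 and 0.957 times the library size that the FPKM imply in WT libraries 1, 2 and 3. In CKO libraries 1, 2 and 3 they were 0.947, 1.107 and 1.033 times it. The deposited FPKM thus hold a scaling between libraries other than by these reads. Recovered reads of *Cdkn1a* were not whole at the annotated length, so the fits on reads leave it out.

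CKO was compared with WT by limma 3.58.1 in R 4.3.3 on log2(FPKM + 0.1), with the trend option of eBayes, over the 12305 genes that averaged 0.5 FPKM or more. *p* values were adjusted over all of them by Benjamini-Hochberg, with a threshold of 0.05. The added 0.1 makes fold changes of low genes too small. Whether libraries come from separate embryos is only given as biological replicates, and an exact permutation of 3 against 3 libraries cannot give a *p* value under 0.1.

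The deviations of same-numbered libraries from their group means, over all tested genes, correlated at 0.64, 0.44 and 0.27 for numbers 1, 2 and 3. All were above 0.1, so the replicate numbers given in the titles were taken to pair the libraries. However, WT 2 with CKO 3 (0.49) and WT 3 with CKO 2 (0.31) correlated more than the libraries that share these numbers. The correlations set only number 1 apart, so they do not settle the pairing of numbers 2 and 3 that the block uses. The fit with the replicate number as a block is given where it changes a call.

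The 9 genes and all gene lists were chosen with earlier results of these data known. Named genes were the 9, *Hnrnpk*, in each other list those with an adjusted *p* under 0.05 in either fit or the largest change, and the 5 most like the median course or *Cdkn1a*. The p53 consensus (a pair of decamers with up to 1 base between them) is its own reverse complement, so 1 scan covers both strands. Proteins were not compared. Alternatives were other pseudocounts, filters, scalings, voom on recovered reads, the block and each library left out. Replicates 2 and 3 alone were added after seeing the data.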

Additional observations from a re-analysis of the deposited data

How the results depend on the processing

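The median log2 difference of the 9 genes was 0.46 and stayed between 0.42 and 0.57 under every alternative run (over 8 genes by voom, which lacked *Cdkn1a*), and 6 of 9 genes had no overlap between the groups under median-ratio scaling and quantile normalization as well. The count of 4 called genes became 5 with the replicate block, 3 without a filter on low values and 6 with replicates 2 and 3 alone, and ranged from 0 to 4 with each library left out in turn. The 43 other p53 genes listed include the cyclins and cyclin-dependent kinases named above. Of the 43, 38 were tested in the fit without the block (34 by voom). Their 3 calls became 12 with the replicate block, 5 under quantile normalization and 10 by voom on recovered reads with the block. They became 15 with replicates 2 and 3 alone, and ranged from 1 to 4 with each library left out. The share of all genes called is given only for the limma fits without and with the block, so nothing is read from the counts of the other fits. Over all genes the block raised the calls from 7 to 139 higher and from 1 to 207 lower. Of the signs, *Plk3* reversed without WT replicate 3 (range with a library left out -0.015 to 0.57) and *Sesn1* without CKO replicate 1 (range -0.267 to 0.027). Over the 9 genes and the alternatives, 128 of 151 values kept their direction and side of the threshold, 17 lost it, 4 gained it and 2 reversed. For the genes not called at first, keeping the side means that they stayed uncalled. All 17 losses fell on the 4 called genes, with 6 for *Ccng1*, 3 for *Cdkn1a*, 4 for *Sesn2* and 4 for *Zfp365*. Without a filter on low values the gene no longer called was *Ccng1*. The cause of these changes was not tested.

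Fits without 1 library compare 2 with 3 libraries, so they have fewer degrees of freedom. *Zfp365* and *Plk3* rest on the fewest reads. The block changed no call among the 9 genes other than that of *Plk2*. What a shared replicate number stands for is not given in the sources used here.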
